A study of Sus scrofa with 13 samples.

Results

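Interleukin-6 family cytokines and their receptors were followed here together with TNF, IL10, CSF3 and the cyclooxygenase PTGS2 in the outflow vein of pig arteriovenous fistulas. The members were the protein-coding rows of the deposited expression table that carry the symbols IL6, LIF, OSM, IL6R, IL6ST, OSMR, TNF, IL10, CSF3 and PTGS2. All 10 symbols were found, among 20288 protein-coding rows and 30477 rows in all. The treated veins (1,25 NP, 8 libraries) came from pigs given 1,25-dihydroxyvitamin D3 nanoparticles of the polymer PLGA in a hydrogel, and the vehicle veins (5 libraries) from pigs given PLGA and hydrogel without the drug. The fistula and the polymer gel are common to both groups, and the labels give no strain, age, time of harvest or untreated vein. The 1,25 NP libraries came from 3 females and 5 males and the vehicle libraries from 3 females and 2 males, as coded in the column names, which also carry the animal codes used below (P13 to P42).

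Interleukin-6 cytokines signal by bringing together a cytokine-specific receptor and the shared subunit gp130, the product of IL6ST, which activates JAK kinases and the transcription factor STAT3. TNF and interleukin-6 are made early in vascular injury, PTGS2 is induced beside them to make prostanoids, and interleukin-10 restrains the macrophages that produce them. In veins exposed to arterial flow, the sources of these transcripts can include infiltrating leukocytes, fibroblasts, smooth muscle and endothelium.

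Values are RPKM, reads on a gene scaled to its length and to the reads on all genes of the library. Recovered totals were 30261776 to 50271231 reads per library, and 12970 to 14686 genes lay above 0.5 RPKM. All 9 endothelial and all 8 smooth muscle markers listed were above the filter on low values. Their summed level varied widely between libraries, at 337 to 4038 RPKM in 1,25 NP veins and 408 to 5510 RPKM in vehicle veins for smooth muscle, and at 106 to 229 RPKM in 1,25 NP veins and 173 to 228 RPKM in vehicle veins for endothelium. Vehicle library P17 stood apart with 4393 RPKM of summed erythroid markers, and vehicle library P15 with 314.9 RPKM of Schwann cell markers, against at most 148 and 28.8 RPKM in the other libraries.

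The receptor chains IL6ST and OSMR were the most abundant of the 10 transcripts, and the cytokines, IL6R and PTGS2 spanned a wide range below them. Over all 13 libraries the median level was 63.1 RPKM for IL6ST, 21.9 RPKM for OSMR, 7.77 RPKM for OSM, 5.22 RPKM for IL6R and 4.77 RPKM for IL6. It was 4.10 RPKM for PTGS2, 1.40 RPKM for LIF, 0.799 RPKM for IL10, 0.392 RPKM for TNF and 0.286 RPKM for CSF3. The library ranges of neighbours in this order overlapped in each case, so only within a library could the receptors be ranked. IL6ST exceeded OSMR in all 13 libraries (OSMR was 0.231 to 0.791 of IL6ST), and OSMR exceeded IL6R in all 13 (1.86 to 12.95 times IL6R). The most variable member was IL6, whose highest library held 85.0 times its lowest, followed by PTGS2 at 54.0 times, while CSF3 varied 1.95-fold and IL6R 3.45-fold.

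None of the members passed the test between 1,25 NP and vehicle veins. Of the 9 members above 0.5 RPKM in at least 5 libraries, 0 were called by limma on log2(RPKM + 0.5) at an adjusted p of 0.05, and the same test called 0 of all 14579 genes (0%). At an unadjusted p under 0.05 the test took 1 of the 9 members (OSM, lower in 1,25 NP), against 585 of all genes (4.01%), of which 117 were higher (0.803%) and 468 lower (3.21%) in 1,25 NP. With median-of-ratios scaling this split turned to 3.31% higher and 1.74% lower. Run on recovered reads, limma voom made 0 calls without and 0 with quality weights (629 and 1914 genes at an unadjusted p under 0.05). An exact permutation test on group labels made 0 calls among 27174 rows. Its smallest possible p was 0.000777, so after adjustment a call needed many rows at that floor, and this 0 says little. The log2 difference was above 0 for 6 of the 9 members and below 0 for 3, with a median of 0.44, beside a median of -0.071 over all genes tested, of which 43.8% were above 0. Both groups overlapped for every member.

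**Figure D1:**
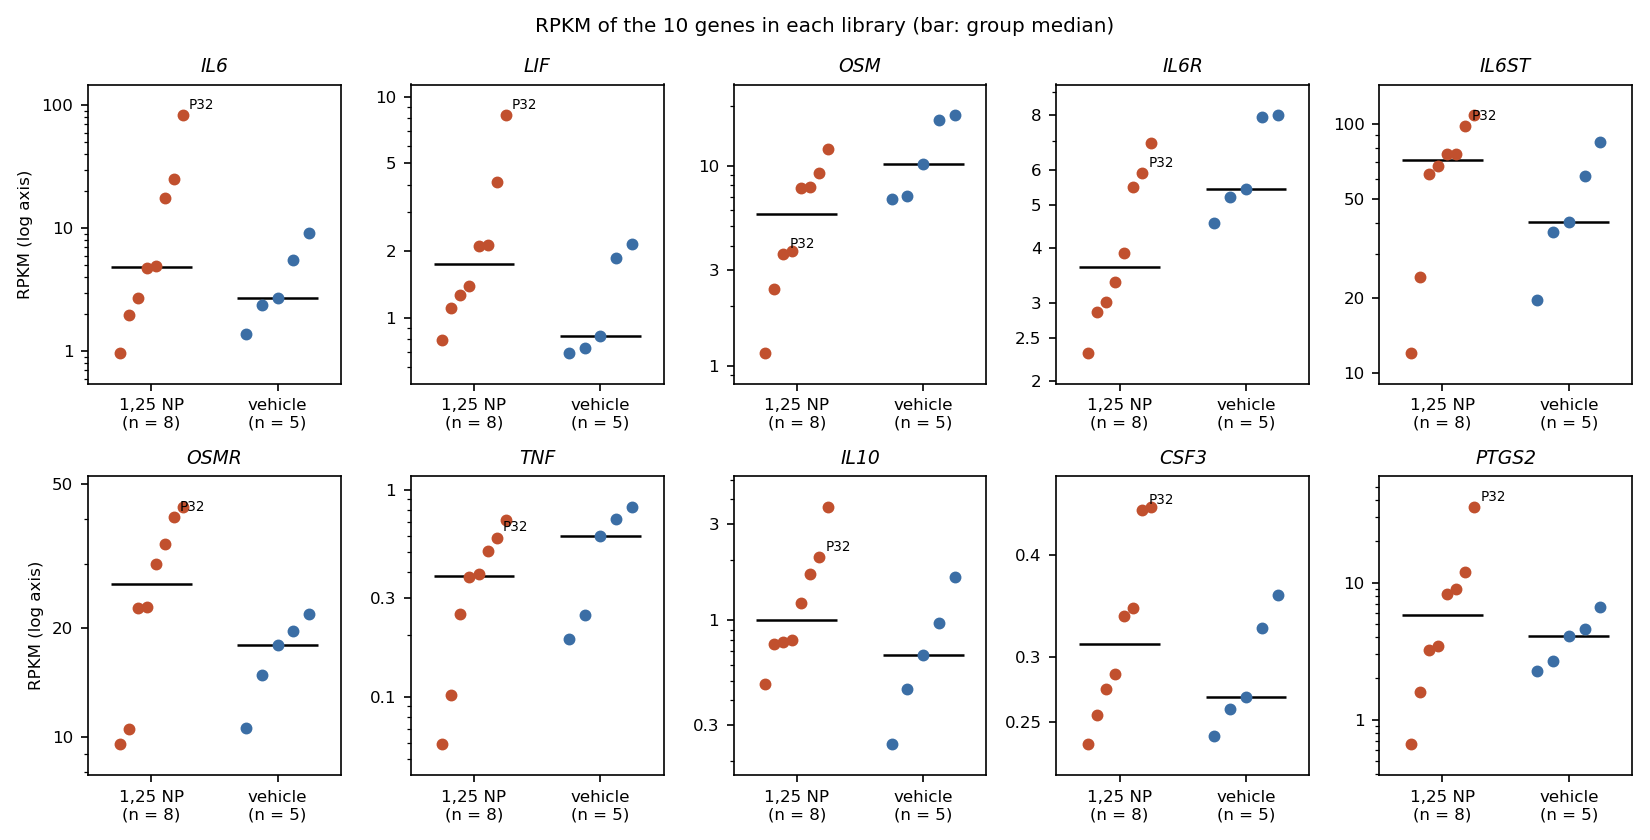
RPKM of the 10 genes (log axes) in the 8 1,25 NP libraries, left, and the 5 vehicle libraries, right, with the group median as a bar and the 1,25 NP library P32 marked. P32 is the highest library for IL6, LIF and PTGS2, and the groups overlap for all 10 genes.

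IL6, the founding ligand of the family, lies on chromosome 9 at bases 91506340 to 91511263 of the file (build not given in the sources used here). It ranged from 0.977 to 83.1 RPKM in 1,25 NP veins with a median of 4.88, and stood at 2.74, 1.39, 2.40, 9.24 and 5.56 RPKM in the vehicle veins. Libraries P32 (83.1 RPKM), P24 (25.2) and P31 (17.5) were above every vehicle library, P23 was below every vehicle library and 4 lay among them. P32 alone held 58.8% of the IL6 summed over the 8 treated libraries. The ratio of the mean in 1,25 NP veins to that in vehicle veins was 4.14 and became 1.95 without P32, while the ratio of medians was 1.78. On the log2 scale the difference was 0.95 (SE 0.82, 95% interval -0.80 to 2.70; limma, adjusted p = 0.795), with a standard error exceeded by that of 1.07% of the genes tested. Without P32 the difference was 0.46.

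LIF, leukemia inhibitory factor, which signals through LIFR and gp130, ranged from 0.792 to 8.25 RPKM in 1,25 NP veins with a median of 1.75. The vehicle veins held 1.85, 2.15, 0.694, 0.730 and 0.822 RPKM. P32 and P31 (4.12 RPKM) exceeded all vehicle libraries and the other 6 lay within the vehicle range. Its log2 difference was 0.65 (SE 0.42; limma, adjusted p = 0.795), and 0.39 without P32, which held 38.9% of the summed LIF of the 1,25 NP libraries.

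OSM, oncostatin M, a ligand made mainly by myeloid cells, ranged from 1.16 to 12.1 RPKM in 1,25 NP veins with a median of 5.76, and stood at 17.0, 6.80, 7.04, 10.2 and 18.0 RPKM in vehicle veins. P31, P42, P32 and P24 were below all vehicle libraries while the other 4 lay among them. The log2 difference of -1.08 (SE 0.46) had an unadjusted p of 0.0327 in limma and an adjusted p of 0.795, and its exact permutation p was 0.0591 (two-sided). The row cannot be read as oncostatin M alone. OSM (chromosome 14, 47243743 to 47266595) overlaps CASTOR1, which encodes an arginine sensor of the mTORC1 pathway, by 4688 bases. The recovered reads of OSM were 0.901 to 1.33 times those of CASTOR1 in the 13 libraries (median 0.946), with the libraries in the same order for both genes (r = 0.995, rho = 1 over 13 libraries). No source used here states how reads in the overlap were divided, and the reads of the 2 genes cannot be told apart.

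**Figure D2:**
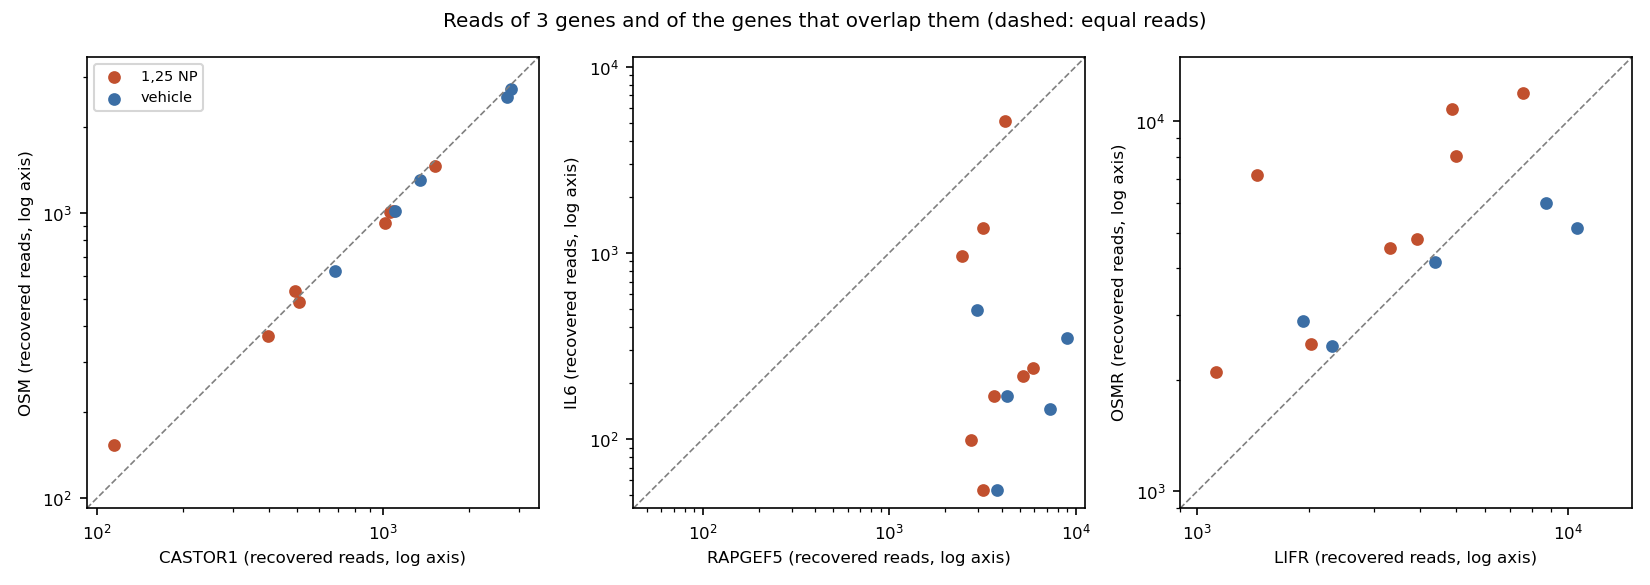
Recovered reads (log axes) of OSM, IL6 and OSMR against those of the gene that overlaps each in the file's coordinates, in 8 1,25 NP and 5 vehicle libraries, with a dashed line at equal reads. OSM follows the line with CASTOR1 in all libraries, whereas IL6 does not follow RAPGEF5 and OSMR follows LIFR loosely.

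Reads of the other overlapping genes were less alike. The whole IL6 row of 4924 bases lies inside RAPGEF5, and the reads of the 2 genes were not alike (r = -0.23, rho = -0.13 over 13 libraries, with IL6 at 0.0140 to 1.22 times RAPGEF5). OSMR and LIFR overlap by 674 bases at their ends, with r = 0.54 and rho = 0.46, and LIF and OSM are neighbours on chromosome 14 with no shared bases.

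Among the receptors, IL6R, the ligand-binding chain for interleukin-6, ranged from 2.32 to 6.93 RPKM in 1,25 NP veins with a median of 3.62, and stood at 5.22, 7.98, 5.43, 7.90 and 4.55 RPKM in vehicle veins. P21, P22, P23, P28 and P31 were below all vehicle libraries and no 1,25 NP library was above them. The log2 difference was -0.55 (SE 0.27, 95% interval -1.13 to 0.028), with an unadjusted p of 0.0606 and an adjusted p of 0.795 in limma.

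IL6ST, the gp130 subunit shared across the family, ranged from 12.1 to 108 RPKM in 1,25 NP veins with a median of 71.5, and stood at 19.7, 61.9, 84.9, 37.0 and 40.5 RPKM in vehicle veins. P28 was the lowest library and P42 and P32 were the highest, with the other 5 treated libraries inside the vehicle range. Its log2 difference was 0.32 (SE 0.50; limma, adjusted p = 0.833), and was 0.041 without vehicle library P13 and 0.63 without 1,25 NP library P28.

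OSMR, the oncostatin M receptor chain that pairs with gp130, ranged from 9.56 to 43.2 RPKM in 1,25 NP veins with a median of 26.4, against 10.6, 14.8, 19.6, 17.9 and 21.9 RPKM in vehicle veins. The 1,25 NP libraries lay on both sides of the vehicle group, 6 above its highest library and P23 and P28 below its lowest. For OSMR the log2 difference was 0.51 (SE 0.37; limma, adjusted p = 0.795). With quality weights, which gave P28 the lowest weight, it was 0.79 with an unadjusted p of 0.00784 and an adjusted p of 0.377.

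Ratios within a library compare these chains without regard to the scaling between libraries. OSMR was 2.86 to 12.95 times IL6R in 1,25 NP veins (median 6.34) and 1.86 to 4.81 times in vehicle veins (median 2.27), with 6 of the 8 treated libraries above the highest vehicle library and none below the lowest. IL6ST was 3.61 to 29.2 times IL6R in 1,25 NP veins (median 17.96) and 3.78 to 15.6 times in vehicle veins (median 7.75), with 5 of 8 above. OSMR stood at 0.301 to 0.791 of IL6ST in 1,25 NP veins and at 0.231 to 0.541 in vehicle veins, where all but 1 treated library lay within the vehicle range. These ratios were chosen after the levels were seen and were not tested.

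TNF, the leukocyte cytokine that drives NF-kappaB signalling, was scarce, at 7 to 107 recovered reads per library. It ranged from 0.0590 to 0.715 RPKM in 1,25 NP veins with a median of 0.385, and stood at 0.190, 0.722, 0.247, 0.829 and 0.600 RPKM in vehicle veins. P28 and P23 were below every vehicle library and none was above. The log2 difference was -0.22 (SE 0.24; limma, adjusted p = 0.796), on a scale whose pseudocount of 0.5 RPKM exceeds the level of TNF in 7 of the 13 libraries and understates its spread. In limma voom on the recovered reads the difference was -0.55.

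IL10, the anti-inflammatory cytokine, ranged from 0.481 to 3.67 RPKM in 1,25 NP veins with a median of 1.01, and stood at 0.242, 0.456, 0.971, 1.65 and 0.674 RPKM in vehicle veins. P31, P32 and P24 exceeded all vehicle libraries and none was below them. For IL10 the log2 difference was 0.52 (SE 0.35; limma, adjusted p = 0.795). CSF3, the granulocyte colony-stimulating factor, never reached 0.5 RPKM and did not enter the fit, with 0.235 to 0.458 RPKM in 1,25 NP veins and 0.241 to 0.357 RPKM in vehicle veins (42 to 127 reads). Its log2 difference was 0.068 with a two-sided exact permutation p of 0.365.

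PTGS2, the inducible cyclooxygenase that starts prostaglandin synthesis, ranged from 0.661 to 35.7 RPKM in 1,25 NP veins with a median of 5.83, and stood at 2.24, 2.69, 6.64, 4.10 and 4.60 RPKM in vehicle veins. P32, P31 (11.9 RPKM), P24 (9.03) and P42 (8.21) exceeded every vehicle library, and P23 and P28 were below all of them. P32 held 48.4% of the summed PTGS2 of the treated libraries. The log2 difference was 0.44 (SE 0.65; limma, adjusted p = 0.827) and 0.063 without P32. The ratio of PTGS2 to PTGS1, the constitutive enzyme, ran from 0.159 to 3.31 in 1,25 NP veins (median 0.472) and from 0.289 to 0.538 in vehicle veins (median 0.490).

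**Figure D3:**
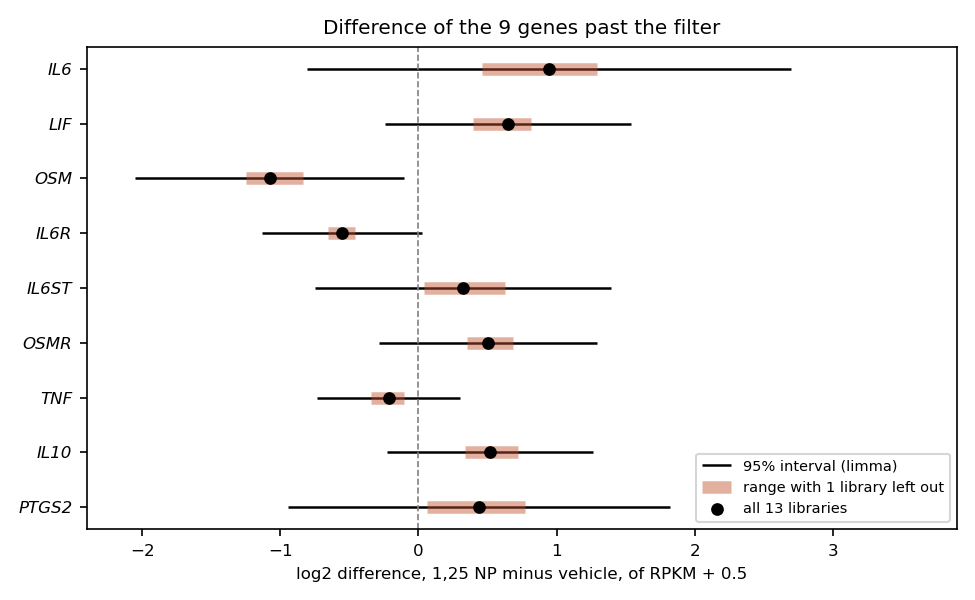
Log2 difference of RPKM + 0.5, 1,25 NP minus vehicle, for the 9 genes past the filter (points), with the 95% interval from limma (lines) and the range when 1 library is left out (bands). All intervals except that of OSM span 0, the IL6 interval runs from -0.80 to 2.70, and no gene passed the adjusted threshold.

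No difference in the effect between the sexes passed the test. The treatment-by-sex term passed for 0 of the 9 members and 0 of 14579 genes (0%; 2.92% at an unadjusted p under 0.05, no member among them). IL6 averaged 15.8 ± 10.3 RPKM in 1,25 NP females and 3.56 ± 1.73 RPKM in vehicle females (SD, n = 3 each), a log2 difference of 1.81 with an unadjusted p of 0.0110 and an adjusted p of 0.452 in limma. Within females 1536 of the 14579 genes had an unadjusted p under 0.05 in limma, and within males 283. In males IL6 averaged 18.7 ± 36.0 RPKM (SD, n = 5) in 1,25 NP veins and 5.31 ± 5.55 RPKM (SD, n = 2) in vehicle veins. Its log2 difference there was 0.38 (SE 1.36; limma, unadjusted p = 0.788). The difference between the sexes, males minus females, was -1.43 (SE 1.70; limma, adjusted p = 0.824). OSM had a log2 difference of -1.72 in females and -0.47 in males, and the term for their difference was 1.24 (SE 0.94; limma, adjusted p = 0.824).

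Several members varied together across libraries. Of the 36 pairs of the 9 members, 15 passed a permutation test of Pearson's r on log2(RPKM + 0.5) over 13 libraries after Benjamini-Hochberg adjustment over the pairs, 11 with a positive and 4 with a negative r. Every negative one involved the OSM row, whose recovered reads were nearly equal to those of the overlapping CASTOR1. Without OSM 11 of 28 pairs passed. The share of all gene pairs that would pass was not computed, so these counts are not shown to be particular to the members. IL6 and PTGS2 had r = 0.85 (permutation p = 0.00026, adjusted p = 0.00312) and rho = 0.77 (adjusted p = 0.0239). The same libraries led both genes, P32, P24 and P31, and the same library, P23, was lowest in both. Without P24 and P32, the libraries farthest from the median of IL6, r was 0.68 (permutation p = 0.0202). It was 0.74 among the 6 females, 0.88 among the 7 males and 0.90 within the 8 1,25 NP libraries (exact permutation p = 0.00231). Within the 5 vehicle libraries r was 0.29.

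**Figure D4:**
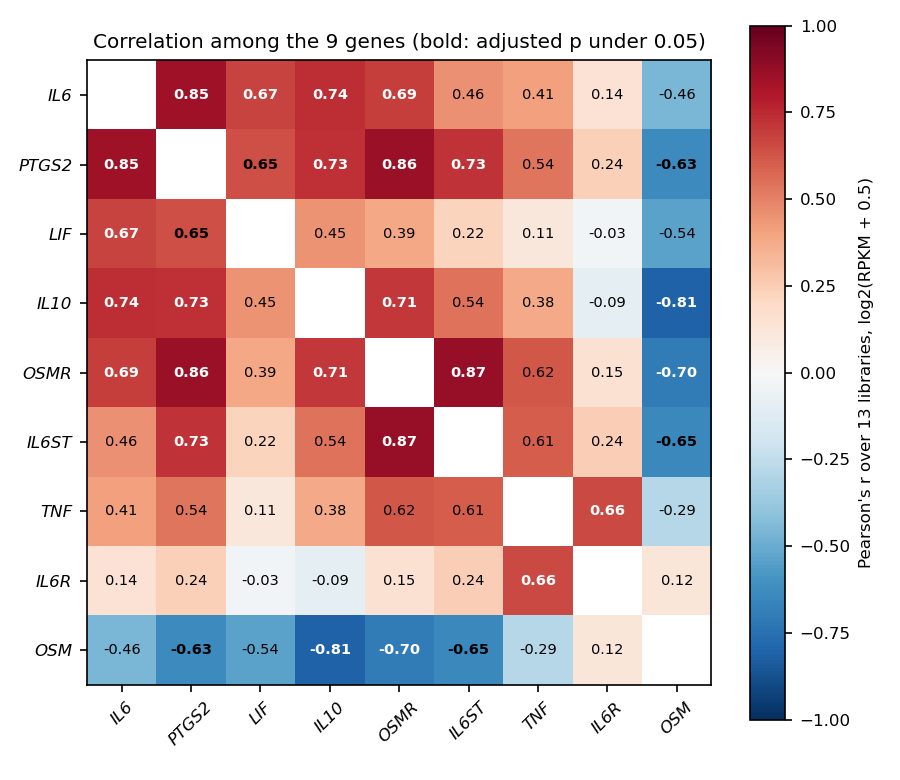
Pearson's r of log2(RPKM + 0.5) over 13 libraries for each pair of the 9 genes past the filter, from -1 (blue) to 1 (red), with pairs of adjusted permutation p under 0.05 in bold. PTGS2 passes with IL6, LIF, IL10, OSMR and IL6ST, IL6 and IL6ST do not pass with each other, IL6R passes with TNF alone, and OSM has the 4 negative calls.

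The receptor pair IL6ST and OSMR had r = 0.87 (permutation p = 0.00011, adjusted p = 0.00198) and rho = 0.87 (adjusted p = 0.00486). Without P13 and P28 r was 0.80, and it was 0.81 in females and 0.90 in males. OSMR and PTGS2 had r = 0.86 and rho = 0.86 (adjusted permutation p = 0.0018 and 0.00486), with 0.80 without P23 and P28. IL10 followed IL6 (r = 0.74, rho = 0.70, adjusted permutation p = 0.0268 and 0.0410) and PTGS2 (r = 0.73, rho = 0.84, adjusted permutation p = 0.0268 and 0.00768). IL6 and IL6ST, the ligand and its signalling subunit, were not called (r = 0.46, rho = 0.40, adjusted permutation p = 0.192 and 0.344), nor were IL6 and IL6R (r = 0.14, rho = 0.13, adjusted permutation p = 0.727 and 0.751). IL6R passed with TNF only (r = 0.66, rho = 0.69, adjusted permutation p = 0.0437 and 0.0410).

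How unusual such an r is depended on the gene. IL6 and PTGS2 were close to each other relative to other genes: 0.0823% of the tested genes had an r with IL6 at least as high as PTGS2 had, and 0.514% an r with PTGS2 at least as high as IL6 had. For OSMR and PTGS2 the share was 0.316% seen from PTGS2 but 6.91% seen from OSMR. IL6ST and OSMR, despite the higher r, stood out less than IL6 and PTGS2. Of the tested genes, 18.6% correlated with IL6ST at least as highly as OSMR did and 5.31% with OSMR at least as highly as IL6ST did. For OSM and IL10 (r = -0.81, rho = -0.69, adjusted permutation p = 0.0072 and 0.0427) the share as far below was 8.41% seen from OSM and 3.07% seen from IL10. Other called pairs had larger shares from 1 side. For IL6ST and PTGS2 the share was 32.6% seen from IL6ST and 11.7% seen from PTGS2. For IL6 and OSMR it was 28.2% seen from OSMR and 2.1% seen from IL6. Points of all these correlations share library, depth and tissue makeup.

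The calls rested on few libraries. Of the 15 pairs, 11 also passed with Spearman's rho, 15 after the group means were removed and 6 within the 8 1,25 NP libraries, and all 15 kept their sign in females and in males. With the 2 libraries farthest from the median of the first gene left out of each pair, 0 pairs passed (smallest adjusted permutation p = 0.0524), 11 had an unadjusted p under 0.05 and 14 kept their sign. LIF and PTGS2 went to r = -0.0055 without P31 and P32. Within the 5 vehicle libraries alone, r was -0.68 for IL6 and LIF and -0.89 for LIF and PTGS2, the reverse of their called sign. The other called pairs kept their sign there. The count of pairs called was 4 without P24, 7 without P32, and 9 without each of P23, P42 and the vehicle library P13.

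Leukocyte and fibroblast markers moved with several members. Of 99 pairs of a member with a marker sum, 15 passed the permutation test with Pearson's r and 9 with Spearman's rho. Other genes were not correlated with these sums, so the counts have no background share and are not shown to be particular to the members. In bulk tissue fewer cells of a type and less RNA per cell cannot be told apart. The summed neutrophil markers (7 of 10 listed genes measured, 4 above the filter, all 4 with a log2 difference above 0 and 0 called) stood at 1.55 to 619 RPKM in 1,25 NP veins and 1.71 to 304 RPKM in vehicle veins. They were highest in P31, then in vehicle library P16, P32 and P24, and at most 28.7 RPKM elsewhere. The direction of the 4 genes was not shared by the sexes. Within females 4 had a log2 difference above 0 (median 3.46), and within males 4 had one below 0 (median -2.065), with 0 called in either. The smallest of the 4 differences over all libraries was 0.019. Of the defining granule genes, MPO was listed at 0 in most libraries and reached at most 0.0317 RPKM.

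IL6 had r = 0.73 with the neutrophil sum (adjusted permutation p = 0.0373) and rho = 0.62 (adjusted p = 0.162), with r = 0.77 without P16 and P31. IL10 had r = 0.88 and rho = 0.76 with it (adjusted permutation p = 0.00643 and 0.0421), and r = 0.77 and rho = 0.81 with the macrophage sum (adjusted permutation p = 0.0281 and 0.0249). All 12 macrophage markers were measured and above the filter, 6 with a log2 difference above 0, and their sum was 167 to 695 RPKM in 1,25 NP veins and 218 to 1109 RPKM in vehicle veins. PTGS2 had r = 0.68 and rho = 0.70 with the neutrophil sum (adjusted permutation p = 0.0528 and 0.0785). The part of these cells in the IL6, IL10 and PTGS2 values was not tested.

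Fibroblast markers ran the other way. Their sum, dominated by collagen transcripts, was 9517 to 41080 RPKM in 1,25 NP veins and 14520 to 51850 RPKM in vehicle veins. Its r was -0.87 with OSMR, -0.80 with PTGS2 and -0.74 with IL6ST and with IL10 (rho -0.81, -0.87, -0.73 and -0.77, adjusted permutation p of r between 0.00643 and 0.0361). TNF also passed against this sum with r = -0.73 (adjusted permutation p = 0.0401) but not with rho = -0.60 (adjusted p = 0.171). All 8 fibroblast markers were above the filter, 4 with a log2 difference above 0. Marker sums were correlated with members only without median-of-ratios scaling. The log2 factor of that scaling had r = 0.77 with IL6ST, 0.59 with TNF, 0.52 with OSMR, 0.35 with PTGS2 and 0.18 with IL10. The part of scaling in the negative r values was not tested. IL6R and TNF went with lymphocyte markers: with the summed B and plasma cell markers, r was 0.81 for IL6R and 0.85 for TNF (rho 0.84 and 0.85, adjusted permutation p of r 0.0224 and 0.0168). That sum was 27.95 to 53.1 RPKM in 1,25 NP veins and 31.2 to 58.0 RPKM in vehicle veins. OSM had r = 0.74 and rho = 0.86 with the erythroid sum (adjusted permutation p = 0.0343 and 0.0119), which was 5.64 to 68.9 RPKM in 1,25 NP veins and 18.2 to 4393 RPKM in vehicle veins. The OSM row also passed with the neutrophil sum (r = -0.71, adjusted permutation p = 0.0401). It passed too with the endothelial sum (r = 0.73, adjusted permutation p = 0.0401) and the skeletal muscle sum (r = 0.77, adjusted permutation p = 0.0281). None of these passed with rho (-0.63, 0.51 and 0.54). With the macrophage sum r was -0.51 (adjusted permutation p = 0.198). Without P31 and P42, r with the endothelial sum was 0.17. The skeletal muscle sum was nearly all 1 gene, PYGM, the only 1 of 7 listed genes past the filter. PYGM averaged 11.7 RPKM in 1,25 NP and 17.2 RPKM in vehicle veins, and the next gene, ACTA1, 0.363 and 0.12 RPKM. As the OSM row cannot be read as oncostatin M alone, neither can these r values. The part of these markers in the member values was not tested.

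**Figure D5:**
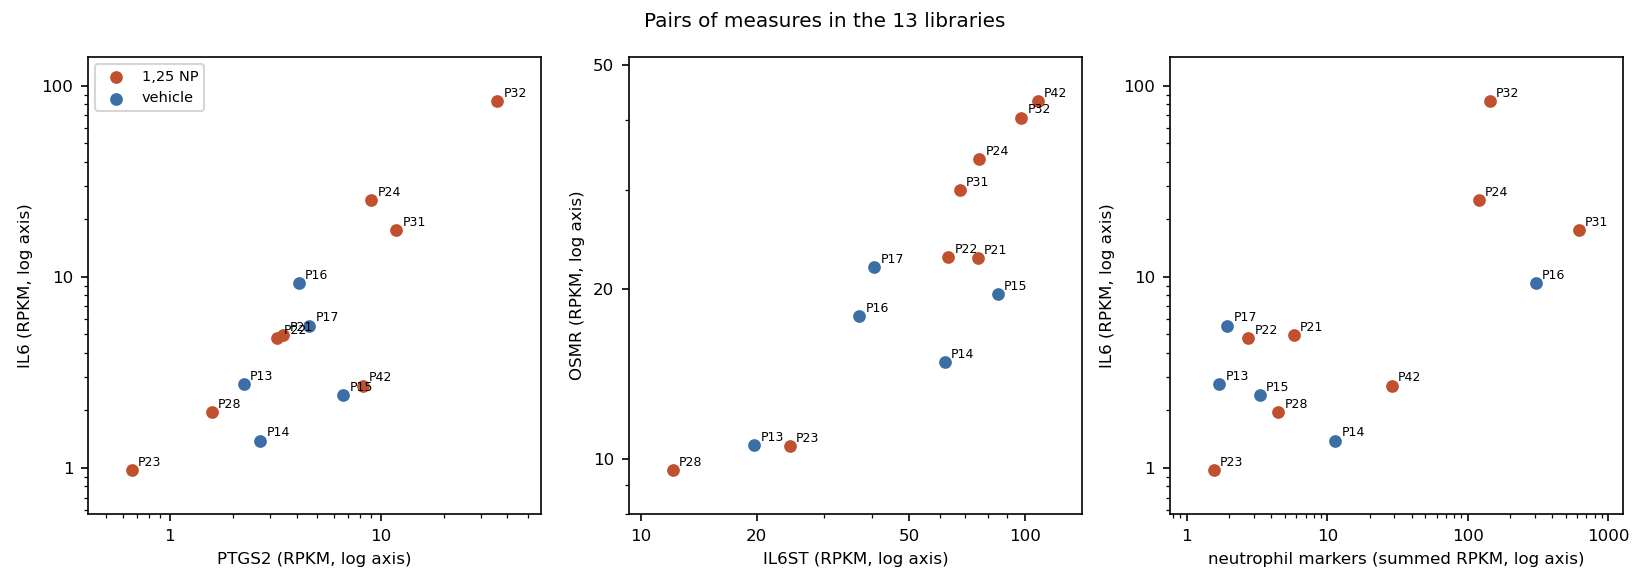
IL6 against PTGS2 (left), OSMR against IL6ST (middle) and IL6 against the summed neutrophil markers (right), in RPKM on log axes, for 8 1,25 NP and 5 vehicle libraries marked by animal code. P32, P24 and P31 lead IL6 and PTGS2 together, and these 3 and vehicle library P16 hold the 4 highest neutrophil sums.

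The genes most like each member over the 13 libraries, by Pearson's r among protein-coding genes past the filter, were listed as a description. For IL6 they were TGM3 (r = 0.88), F13A1 (0.88) and ANKRD22 (0.87), and for PTGS2 they were SHQ1 (0.93), DNAJC3 (0.92) and MTHFD2 (0.90). For IL10 they were CTSL (0.97), PRDX6 (0.95) and MSR1 (0.95), and for LIF they were NRG1 (0.81), DAW1 (0.75) and NR4A2 (0.75). IL6R was nearest to CIITA (0.94), CCL19 (0.94) and SLA-DQB1 (0.91), and TNF to FAS (0.93), SOCS1 (0.91) and RNF19B (0.90). IL6ST was nearest to GOLPH3L (0.99), ARMC1 (0.99) and SMAD4 (0.99), OSMR to TGIF2-RAB5IF (0.98), GHITM (0.97) and MTUS2 (0.97), and OSM to CASTOR1 (0.995), ARSL (0.98) and USP20 (0.98). For IL6, 10 protein-coding genes had an r above that of PTGS2. TGM3, the nearest to IL6, ranged from 0.253 to 72.4 RPKM in 1,25 NP veins and from 0.580 to 11.9 RPKM in vehicle veins.

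The rest of the pathway was read from fixed lists, in which 0 genes were called. Of the other family ligands, 3 of 9 listed passed the filter, 0 with a log2 difference above 0 and 3 below (median -0.31). EBI3, a subunit of interleukin-27 and interleukin-35, had 1.38 ± 0.611 RPKM in 1,25 NP veins and 2.26 ± 0.719 RPKM in vehicle veins (SD, n = 8 and 5), a log2 difference of -0.57 (SE 0.25). Its partner IL27 had a difference of -0.31 (SE 0.40) and CLCF1, a ligand that signals through CNTFR, one of -0.13 (SE 0.34). Of the other receptor chains 7 of 9 passed the filter, 2 above 0 and 5 below (median -0.18). CNTFR, the receptor of ciliary neurotrophic factor, had a difference of -0.83 (SE 0.40), LIFR one of -0.49 (SE 0.45) and IL11RA one of -0.31 (SE 0.23).

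Downstream of gp130, the 17 JAK-STAT3 genes past the filter divided into 5 above 0 and 12 below (median -0.12), a split that became 8 and 9 with median-of-ratios scaling (median -0.018) and 9 and 8 with quality weights (median 0.056). The kinase TYK2 had 17.3 ± 6.07 RPKM in 1,25 NP veins and 27.1 ± 7.79 RPKM in vehicle veins (SD, n = 8 and 5), a log2 difference of -0.66 (SE 0.29), and STAT5B and STAT5A had differences of -0.44 (SE 0.20) and -0.55 (SE 0.30). Known STAT3 target genes divided into 5 above and 11 below 0 of 16 (median -0.13), 7 and 9 with median-of-ratios scaling (median -0.032) and 9 and 7 with quality weights (median 0.046). The adhesion molecule ICAM1 had a difference of -0.49 (SE 0.42), while the protease inhibitor TIMP1 had 0.69 (SE 0.64) and the chemokine CCL2 had 0.67 (SE 0.69). CCL2 had a median of 67.0 RPKM in 1,25 NP veins (highest 313) and of 36.8 RPKM in vehicle veins (highest 170.5).

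The TNF receptors and pathway genes divided into 6 above and 8 below 0 of 14 (median -0.096), and 7 and 7 with median-of-ratios scaling (median 0.0014). TRAF1, an adaptor of TNF receptors, had 3.02 ± 0.908 RPKM in 1,25 NP veins and 6.52 ± 2.32 RPKM in vehicle veins (SD, n = 8 and 5). Its log2 difference of -0.96 (SE 0.27) had an unadjusted p of 0.00318 in limma, the smallest of any listed pathway gene, and an adjusted p of 0.795. TNFRSF1B, the second TNF receptor, had -0.55 (SE 0.26) and the NF-kappaB inhibitor TNFAIP3 had -0.81 (SE 0.41). All 3 tested genes of the IL-10 receptor list had differences below 0 (IL10RA -0.39, IL20RA -0.38, IL10RB -0.23), and the 17 prostanoid genes divided into 5 above and 12 below (median -0.11), or 9 and 8 with quality weights (median 0.054). In that list ALOX5 had -0.97 (SE 0.50), PTGES -0.51 (SE 0.30) and PTGES3 0.83 (SE 0.56). The shares above 0 in these lists, from 0% to 42.9%, stand beside 43.8% of all genes tested, a share that was 51.3% with median-of-ratios scaling.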

How the data were processed

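The members and the gene lists were chosen with earlier results of these data known. RNA-seq libraries of 13 pig veins were made from 0.5 µg of total RNA each with a TruSeq V2 kit, per the labels' protocols. The treatment text in the labels describes a mouse experiment and was not used, and aligner, counter, strand setting and genome build were not given in the sources used here. The authors deposited 1 table, with no unit in its header. Its values were taken as the authors' RPKM because value times length and library total gave whole reads for 100% of values within 0.001. The length column and the file's own coordinates were used as deposited. Column names hold the group, a code for the animal and its sex but no replicate number. The labels do not say that each library is a separate animal, although every column has its own code. The p-values measure only the spread between these samples. Genes needed more than 0.5 RPKM in 5 libraries, which 14579 had. Their log2(RPKM + 0.5) values entered limma 3.58.1 (R 4.3.3, variance trend on), and p-values were adjusted over them by Benjamini and Hochberg's method, with a threshold of 0.05. The fit was checked on simulated data. Count models did not suit the unit, and limma voom on recovered reads served as an alternative. Exact permutations used all 1287 assignments of group labels (smallest p 0.000777), and correlations 100000 resamples. Named genes were the members, the 3 smallest p-values of each pathway list and the 3 genes of highest r per member. A reference table supplied symbols for 785 of 14012 unnamed rows. Values of 1 gene of the ligand list are not reported here, and that list was summarised without it.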

Additional observations from a re-analysis of the deposited data

Results flagged for a closer look

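In 1,25 NP library P32, 3 of the 10 genes stood far from the other 7 libraries of the group, by a gap test between the extreme library and its neighbour. IL6 was at 83.07 RPKM there, with a gap of 0.705 of the group's range. PTGS2 was at 35.7 RPKM (gap 0.679) and LIF at 8.249 RPKM (gap 0.554). No other member in either group exceeded the critical value, of 20 gene and group combinations examined. Chance exceeds that value in about 1 in 20 only where values are normally distributed. The gaps were taken on RPKM and not on the log2 scale of the fits, so the flags hold for the RPKM scale only. The animal is a male, its library held 48493235 reads, and its summed neutrophil markers stood at 143.5 RPKM, below 2 of the other libraries. The part of those cells in the 3 values was not tested. OSMR, IL6ST, IL10 and CSF3 were second highest of all libraries in P32.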

How the results depend on the processing

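No gene was called in any alternative except 1 without vehicle P17, so counts with 1 library left out ran from 0 to 1. The members kept the sign of their log2 difference under other scaling, filters, pseudocounts, voom, quality weights, the sex covariate and each library left out. Within 1 sex, IL6ST was -0.012 in males and TNF 0.077 in females. Among pathway genes, within females IL27 was 0.051, IL10RB 0.45 and IL20RA 0.38, and within males CNTFR was 0.026 and CLCF1 0.11. With quality weights IL27 was 0.28 and LIFR 0.0020. With 1 library left out, IL27 ran from -0.54 (vehicle P15) to 0.058 (vehicle P16), IL10RB from -0.45 (vehicle P13) to 0.031 (vehicle P16) and CLCF1 from -0.35 (1,25 NP P28) to 0.059 (vehicle P13). The correlation calls were less stable: 15 pairs passed with all libraries, 8 in the 1,25 NP libraries alone, 0 without the 2 libraries farthest from the median, and 4 to 15 with 1 library left out. LIF and PTGS2 had r = -0.0055 without the 2 farthest. The cause was not tested. No paired analysis was possible because no animal code in the column names occurs in both groups. TNF was under the filter of 1 RPKM and has no value there. The spread between libraries left IL6 a 95% interval of -0.80 to 2.70 on the log2 scale, and TNF rests on at most 107 reads per library.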
